A study of Mus musculus musculus x Mus musculus castaneus with 7 samples.

Results

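Chemokines and their receptors were followed through the reprogramming of female mouse embryonic fibroblasts to induced pluripotent stem cells (iPSCs). Genes were taken by their symbols: the numbered Ccl and Cxcl ligands, Cx3cl1, Ppbp and Pf4, and the Ccr, Cxcr, Cx3cr1, Ackr and Ccrl2 receptors. The rule found 39 of the 24393 genes of the expression table, 25 ligands and 14 receptors. The 2 genes with the most marked courses were Ppbp, a ligand of neutrophil receptors, and Ccl8, a mouse ligand of Ccr8. Ppbp stood at 20042 normalized counts in the Day 2 library and had no read in any of the other 6. Ccl8 stood at 2019 in the Day 13 library and had no read in any of the other 6. Fibroblast-type ligands were highest in the 2 earliest libraries, and 5 of 9 myeloid ligands (Ccl3, Ccl4, Ccl6, Ccl12 and Pf4) had their 2 highest values in the Day 8 and Day 13 libraries.

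The series has 7 RNA libraries, each standing alone for its group, all from female cells of a musculus by castaneus mouse cross. Fibroblasts carrying an X-linked GFP reporter received 2 lentiviruses, a doxycycline-inducible cassette of Oct4, Sox2, Klf4 and cMyc (tetO-FUW-OSKM) and the M2rtTA activator, and were sorted by the state of the reporter. Reprogramming ran in 2 µg/ml doxycycline with 50 µg/ml ascorbic acid, LIF and serum, and libraries were made at Day 2 and from SSEA1-positive cells at Days 8, 10, 13 and 15. The iPSCs, grown from picked colonies after both additives were withdrawn, and the embryonic stem cells (ESCs, labelled F121) were sorted for both SSEA1 and GFP. SSEA1 is a surface glycan of mouse pluripotent cells. The labels give neither the number of embryos or colonies behind a library nor any SSEA1 sort at Day 2, so time and sorting cannot be told apart in a comparison with Day 2.

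Chemokines are small secreted proteins that direct the movement of leukocytes and other cells by binding receptors coupled to G proteins. They are named by the spacing of the first cysteines of the mature protein, which are adjacent in CC ligands, separated by a single residue in CXC ligands and further apart in CX3CL1. CXC ligands with glutamate, leucine and arginine just before those cysteines (the ELR motif) attract neutrophils through Cxcr2. Atypical receptors (Ackr genes) bind chemokines without G protein signalling and remove or transport them. Fibroblasts release several of these ligands when activated, and macrophages make others.

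The codons around the first cysteine pair are shown for ligands that the results turn on, because they set each ligand's family. Cysteine codons and, where present, the 3 ELR codons are in capitals. The bases come from GENCODE M21 transcripts (GRCm38), written 5′ to 3′ on the coding strand.
Ppbp: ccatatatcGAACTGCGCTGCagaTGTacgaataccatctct
Cxcl5: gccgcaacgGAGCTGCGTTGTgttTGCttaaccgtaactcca
Cxcl2: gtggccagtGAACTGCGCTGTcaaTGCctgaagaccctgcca
Cxcl3: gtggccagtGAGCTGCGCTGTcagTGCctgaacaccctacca
Pf4: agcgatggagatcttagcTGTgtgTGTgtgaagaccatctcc
Cxcl12: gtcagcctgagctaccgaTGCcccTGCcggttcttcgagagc
Cx3cl1: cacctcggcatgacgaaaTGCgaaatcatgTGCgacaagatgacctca
Ccl2: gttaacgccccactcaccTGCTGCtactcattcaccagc
Ccl12: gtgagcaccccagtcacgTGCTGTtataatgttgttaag
Ccl8: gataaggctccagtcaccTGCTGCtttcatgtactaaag
In these sequences Ppbp, Cxcl5, Cxcl2 and Cxcl3 carry the ELR codons and Pf4, which lies next to Ppbp, does not. Cxcl2 and Cxcl3 shared 89.7% of their coding bases, the highest share of any pair of members. Only their 300 coding bases were compared, of 2068 (Cxcl2) and 3498 (Cxcl3) exonic bases. Reads could have gone to the wrong gene of the pair, which was not tested. Cxcl1 and Cxcl2 shared 75.7%, and Ccl8 shared 66.7% with Ccl7 and 65.1% with Ccl12.

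Reads assigned to genes numbered 15370903 (iPSC) to 57021069 (Day 15) per library. The deposited values are log2 of normalized counts plus 1, and normalized counts are reads divided by a size factor for the library. With 1 library per group there is no replicate check, no test and no p-value, and every difference is between 2 libraries. Folds are ratios of normalized counts, followed by a 95% Clopper-Pearson interval of the reads that covers counting error only. Against 0 reads a fold is set against 3 reads, worth 1.74 normalized counts (Day 15) to 7.03 (iPSC), and is given as a lower bound. Of the genes at 6 or more on the log2 scale in the 6 remaining libraries, the Day 2 library lacked any read for 2.97% and the Day 8 library for 5.75%, against 0% to 0.334% for the others. A 0 in the Day 2 or Day 8 library is therefore a weaker measurement, and a bound set against it covers counting error only. At Day 2, Pou5f1 (Oct4) and Sox2 had 0 reads each, Klf4 309 and Myc 9773, so expression of the whole factor set is not seen in it.

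Of the 39 genes, 30 reached 6 on the log2 scale (63 normalized counts) in at least 1 library. Among these 30, the highest library was Day 8 for 11, Day 2 for 9, Day 13 for 5, Day 15 and iPSC for 2 each, ESC for 1 and Day 10 for 0. The same count was not made over all genes, so whether this spread is particular to the members is not known. The summed normalized counts of the ligands were 57867 (Day 2), 49735 (Day 8), 3209 (Day 10), 11065 (Day 13), 11173 (Day 15), 2287 (iPSCs) and 2244 (ESCs). The Day 2 and Day 8 libraries thus held the most ligand RNA and the stem cell libraries the least. The receptors summed to 1124, 819, 325, 786, 1000, 986 and 287 in the same order, so their sum came closest to that of the ligands in iPSCs. The leading ligand by reads also differed: Ppbp made 34.6% of the summed ligand counts at Day 2, Ccl2 22.9% (Day 8), Ccl7 28.9% (Day 10), Ccl8 18.2% (Day 13), Cxcl12 68.1% (Day 15), Ccl25 29.1% (iPSCs) and Ccl9 23.3% (ESCs). Members with at least 1 read numbered 32 at Day 13 and 21 to 25 in the other 6 libraries, where 20923 of all 24393 genes had a read at Day 13 and 14400 (Day 8) to 21326 (Day 15) in the others.

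**Figure D1:**
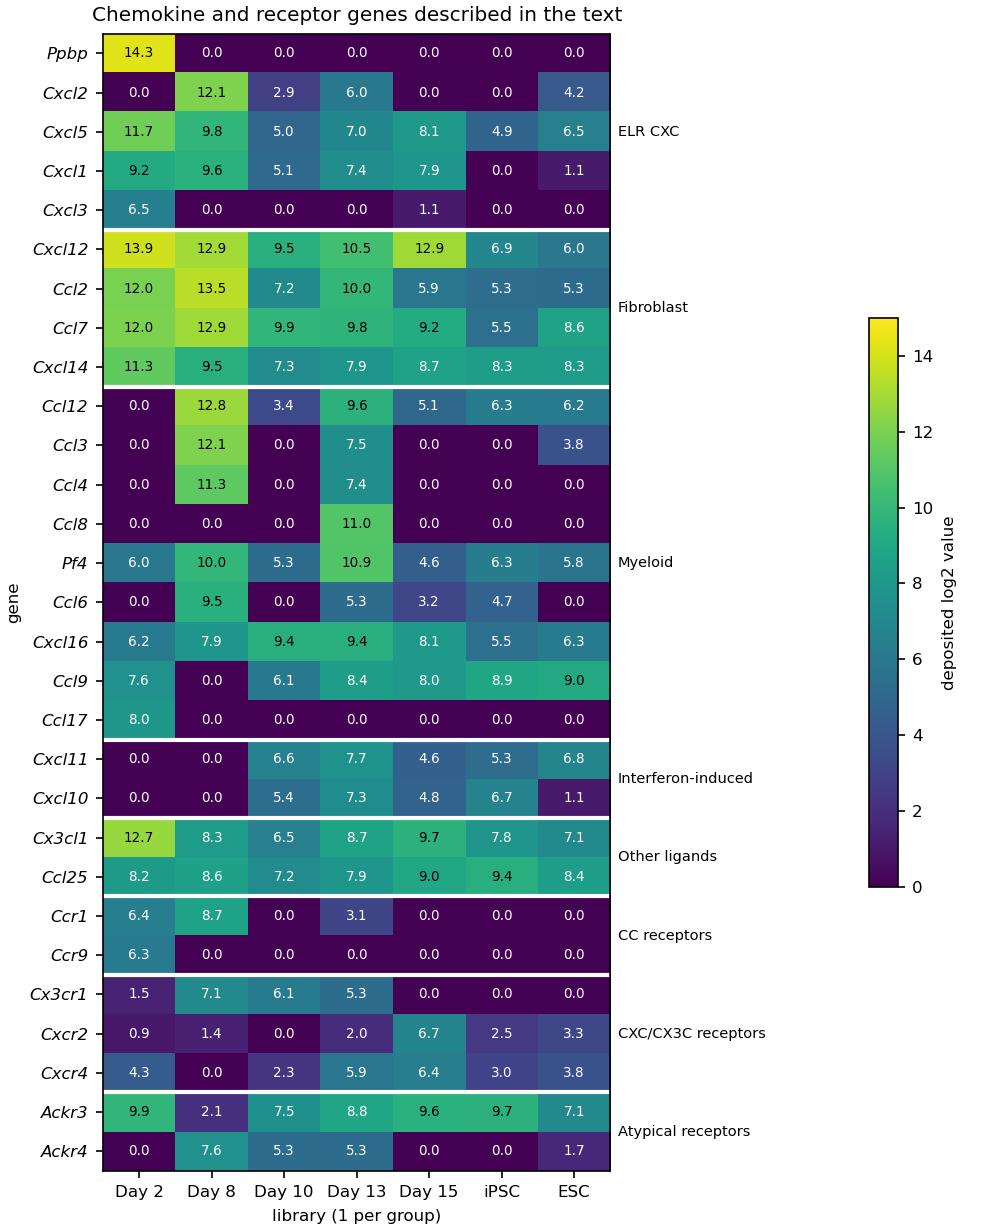
Deposited log2 values (colour and printed number) of the chemokine and receptor genes described in the text that reached 6 in at least 1 library, in rows by role, with the 7 libraries in columns. Ppbp is high at Day 2 alone (14.29), Ccl8 at Day 13 alone (10.98), and Ccl12, Ccl3 and Ccl4 at Days 8 and 13.

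A gene was compared where the higher of 2 libraries reached 6 on the log2 scale, and was called at a difference of at least 2 (4-fold). From Day 2 to Day 8, 9 of 24 chemokine genes compared were higher and 7 lower, against 16.3% higher and 21.9% lower among all genes compared. With reads required in both libraries, 3 were higher and 2 lower. From Day 8 to Day 10, 14 of 21 were lower and 3 higher, where 9.08% of all genes were lower and 20% higher. From Day 10 to Day 13, 12 of 21 were higher and 0 lower, with 7.08% and 2.85% among all genes. From Day 13 to Day 15, 9 of 22 were lower and 2 higher, with 6.03% and 6.36% among all genes. Against Day 15 the iPSC library had 7 of 16 lower and 1 higher (13% and 0.246% of all genes). Between iPSCs and ESCs, 1 of 14 was higher in ESCs and 2 lower (7.31% and 6.35% of all genes). Between the ends of the course, iPSC against Day 2, 12 of 20 were lower and 3 higher, against 18.6% and 18% of all genes. The main direction was down from Day 8 to 10, up from Day 10 to 13 and down from Day 13 to 15. In that direction the share of chemokine genes called stood well above that of all genes at each of these steps. The median differences of the genes compared were 0.63, -3.40, 2.14, -0.95, -1.09 and -0.32 over the 6 consecutive steps on the log2 scale. Between the ends the median was -5.56, and all genes compared had medians from -0.11 to 0.05. From Day 13 to Day 15 the groups parted. Their medians were -6.36 (myeloid), -2.79 (interferon-induced), 0.49 (fibroblast and ELR), 1.08 (other ligands) and 0.63 (receptors). With reads required in both libraries, 5 genes were lower at that step and 2 higher. With Day 10 in place of Day 8, 13 genes were lower than at Day 2 and 3 higher, with 13.9% and 17.9% of all genes.

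**Figure D2:**
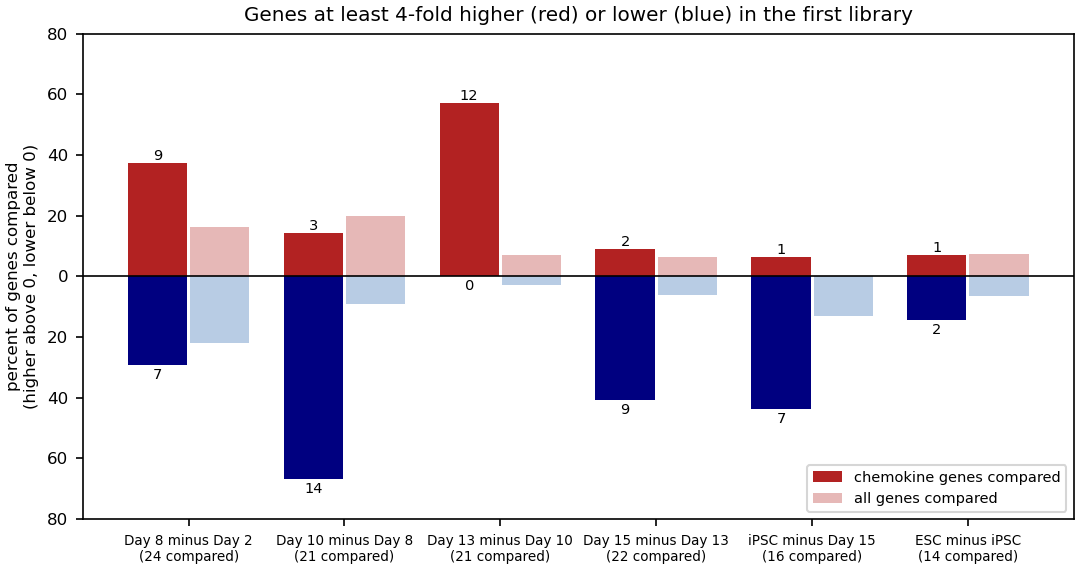
Percent of the genes compared that were at least 4-fold higher (red, above 0) or lower (blue, below 0) in the library named before "minus", for chemokine genes (dark bars, number of genes printed) and for all genes compared (pale bars). The dark bars point down at Day 10 (14 of 21), up at Day 13 (12 of 21) and down again at Day 15 (9 of 22).

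Among the ELR ligands, which recruit neutrophils, Ppbp (pro-platelet basic protein, best known from platelet granules) had 21922 reads at Day 2 and 0 in each other library. It was at least 8187-fold higher at Day 2 than at Day 8 and at least 2852-fold higher than in iPSCs. Of the 82 genes at 6 or more on the log2 scale in the Day 2 library with no read anywhere else, Ppbp had the highest level. Levels were also set per exonic kilobase, over the union of the exons of all annotated transcripts of a gene. This length can exceed that of the transcript expressed, so the order of genes rests on the annotation. On this scale Ppbp stood at 18500 normalized counts at Day 2, Ccl7 at 5250, Ccl2 at 3600 and Cxcl12 at 1890. Pf4 (platelet factor 4), the other platelet chemokine and the neighbouring gene, stood at 88.8 per kilobase in the same library. Of the 4 platelet and megakaryocyte markers in the table, Gp5 had no read at Day 2, Gp1bb stood at 75.0 and Itga2b at 85.9 normalized counts, and Itgb3, an integrin that fibroblasts can also express, at 2994. The summed level of those 4 was 3155 at Day 2, 0 at Day 8 and in ESCs, and 257 to 504 in the other 4 libraries. A platelet source of the Ppbp reads was not tested.

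Cxcl5, also a Cxcr2 ligand, stood at 3392 normalized counts (Day 2), 921 (Day 8), 30.3 (Day 10), 128 (Day 13), 272 (Day 15), 28.1 (iPSCs) and 92.9 (ESCs). Cxcl1 stood at 566, 763, 34.2, 166, 234, 0 and 1.08 in the same order. Among the sorted intermediates both were lowest at Day 10, and Days 13 and 15 lay between Day 10 and Day 8. Cxcl5 was 30.4-fold lower at Day 10 than at Day 8 (22.1 to 43.0) and Cxcl1 22.3-fold (16.5 to 30.9). Cxcl2, which macrophages release early in inflammation, had another course: 0 (Day 2), 4394 (Day 8), 6.21 (Day 10), 65.4 (Day 13), 0 (Day 15), 0 (iPSCs) and 17.3 (ESCs). It was 707-fold lower at Day 10 than at Day 8 (359 to 1639). Cxcl3 stood at 89.6 at Day 2 and at 1.16 (2 reads) at Day 15, with no read in the other 5. Cxcl2 and Cxcl3, alike in coding sequence as shown above, were thus each without a read in the library where the other was highest.

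Cxcl12 (SDF-1), which holds stem and progenitor cells in their niches, stood at 15470 normalized counts (Day 2), 7631 (Day 8), 721 (Day 10), 1405 (Day 13), 7609 (Day 15), 122 (iPSCs) and 61.6 (ESCs). Its Day 15 level was close to that of Day 8 and 5.41-fold above Day 13 (5.13 to 5.72). The iPSC library was 62.5-fold below Day 15 (47.6 to 83.7). Ccl2, the main attractant of monocytes through Ccr2, stood at 4093, 11384, 141, 997, 58.1, 39.8 and 37.8 from Day 2 to ESC. Its values at Days 10 and 13 went down and up again, 81.0-fold lower at Day 10 than at Day 8 (69.9 to 94.3) and 7.09-fold higher at Day 13 than at Day 10 (6.05 to 8.36). Ccl2 then fell 17.2-fold from Day 13 to Day 15, where Cxcl12 rose. Over that step the summed fibroblast markers described below rose from 39437 to 88530, and the summed macrophage markers fell from 50391 to 5417. The part of macrophages in the Ccl2 level was not tested. Ccl7, a further monocyte attractant, stood at 4209, 7521, 928, 881, 587, 44.5 and 399. Cxcl14, a ligand of epithelia and fibroblasts, stood at 2608, 710, 152, 231, 403, 321 and 315. All 4 ligands grouped here as fibroblast ligands, Ccl2 among them, were called lower at Day 10 than at Day 8 (9.08% of all genes). All 4 were also lower in iPSCs than at Day 2 (18.6% of all genes). These differences ran from 8.13-fold for Cxcl14 (6.84 to 9.72) to 127-fold for Cxcl12 (96.8 to 170). Ccl7 was 8.96-fold higher in ESCs than in iPSCs (5.65 to 15.0).

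The summed fibroblast ligands (4 genes) and ELR ligands (5 genes) were set beside 15 fibroblast markers, all of which had reads at Day 2. The marker sum was 1091480 normalized counts (Day 2), 101791 (Day 8), 19340 (Day 10), 39437 (Day 13), 88530 (Day 15), 9416 (iPSCs) and 10452 (ESCs). The fibroblast ligand sum was 26381, 27246, 1942, 3515, 8658, 527 and 814 in the same order. The ratio was 2.42 normalized counts of ligand for each 100 of marker at Day 2 and 26.8 at Day 8. Both sums rest on unlike members: Col1a1 made the most of the marker sum (505292 at Day 2 and 28413 at Day 8), whereas Dcn (289 and 8747), Lum (394 and 973) and Postn (2890 and 3789) were higher at Day 8. Likewise Ccl2 and Ccl7 were higher at Day 8 and Cxcl12 and Cxcl14 lower. Ccl2, which made 11384 of the ligand sum at Day 8, did not follow the marker sum from Day 13 to Day 15, as given above. From Day 10 to Day 15 the ratio was 8.91 to 10.0. The ELR sum was 24090 (Day 2), 6078 (Day 8), 70.7 (Day 10), 359 (Day 13), 507 (Day 15), 28.1 (iPSCs) and 111 (ESCs). Pdgfra and Twist1 had no read at Day 8, Pdgfrb and Twist1 none at Day 10, Pdgfrb and Lum none in ESCs, and Col6a3, Pdgfrb, Prrx1, Lox, Postn, Dcn and Lum none in iPSCs. In such bulk RNA, fewer fibroblasts and less RNA per fibroblast cannot be told apart, and the part of either in the ligand levels was not tested.

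**Figure D3:**
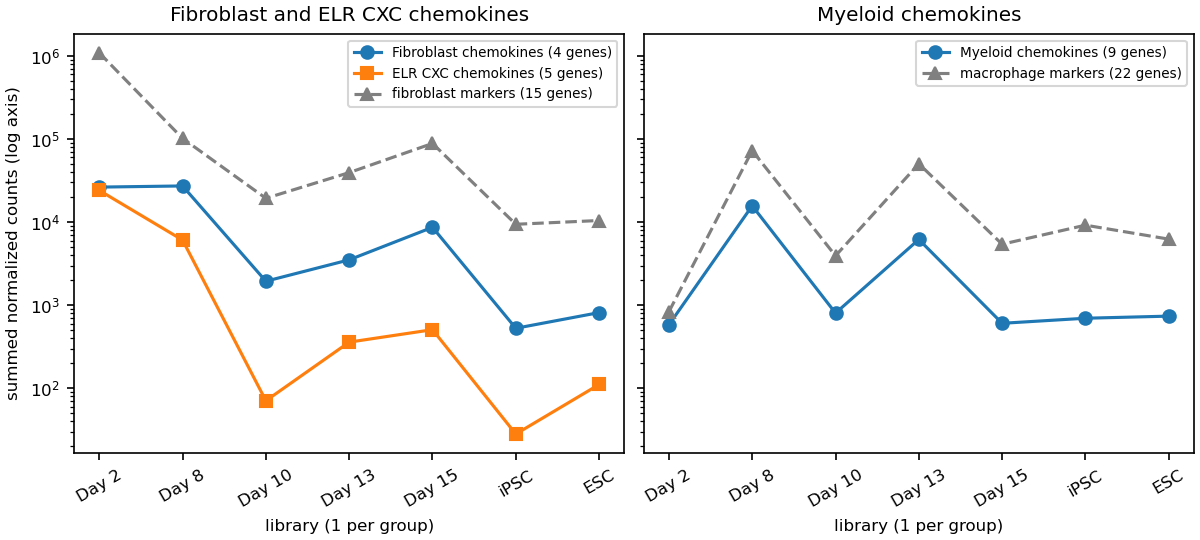
Summed normalized counts (log axis) of the fibroblast and ELR CXC chemokines (left) and of the myeloid chemokines (right) in each library, with the summed fibroblast or macrophage markers as grey triangles. Lines join libraries to guide the eye. The myeloid chemokines and the macrophage markers both peak at Days 8 and 13.

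Myeloid ligands formed the second pattern. Ccl12, a mouse monocyte attractant, stood at 0 (Day 2), 6879 (Day 8), 9.32 (Day 10), 795 (Day 13), 33.1 (Day 15), 77.3 (iPSCs) and 74.5 (ESCs). Ccl3 (MIP-1α) stood at 4402 at Day 8, 174 at Day 13 and 13.0 in ESCs, with no read in the other 4. Ccl4 (MIP-1β) stood at 2466 at Day 8 and 172 at Day 13, with no read elsewhere. Both are made by activated macrophages. These 3 genes were high at Day 8, low or absent at Day 10 and intermediate at Day 13, with Ccl3 at least 1889-fold and Ccl4 at least 1058-fold higher at Day 8 than at Day 10. Ccl6, a mouse CC ligand of myeloid cells, stood at 731 (Day 8), 39.1 (Day 13), 8.13 (Day 15) and 25.8 (iPSCs), with none in the other 3. Pf4, which macrophages make as well as platelets, stood at 64 (Day 2), 998 (Day 8), 38.8 (Day 10), 1942 (Day 13), 22.6 (Day 15), 79.7 (iPSCs) and 52.9 (ESCs). It was 50.0-fold higher at Day 13 than at Day 10 (37.8 to 67.6) and 85.8-fold higher than at Day 15, where it had 39 reads.

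Ccl8 (MCP-2), a mouse ligand of Ccr8, had 2067 reads at Day 13 and 0 in each other library, at least 867-fold above Day 10 and at least 1159-fold above Day 15. Of 38 genes at 6 or more in the Day 13 library and without a read elsewhere, Ccl8 had the highest level. Per exonic kilobase it led the Day 13 ligands at 3950 normalized counts, followed by Pf4 at 2690, Ccl12 at 1480 and Ccl7 at 1100. At Day 8 the order was Ccl12 at 12800, Ccl2 at 10000, Ccl7 at 9390 and Ccl3 at 5750.

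The remaining myeloid ligands did not follow Days 8 and 13. Cxcl16, a membrane-bound ligand of Cxcr6, stood at 74.1 (Day 2), 240 (Day 8), 688 (Day 10), 697 (Day 13), 281 (Day 15), 44.5 (iPSCs) and 75.6 (ESCs). Its exons overlap those of Zmynd15 over 552 of 3021 bases, so the origin of part of its reads is uncertain. Ccl9, a mouse ligand of Ccr1, stood at 194, 0, 66.8, 343, 261, 469 and 522 in the same order and was the leading ligand by reads in ESCs. Its 0 at Day 8, between values of 194 and 66.8, was the 1 case among the 39 genes of no read where all 6 other libraries reached 6 on the log2 scale. Ccl17, a ligand of Ccr4 usually made by dendritic cells, stood at 248 at Day 2 with no read elsewhere.

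The myeloid ligands were set beside 22 macrophage markers, led by lysozyme (Lyz2), Mrc1, C1qb, Msr1 and the CSF1 receptor Csf1r. Their sum was 833 normalized counts (Day 2), 72512 (Day 8), 3927 (Day 10), 50391 (Day 13), 5417 (Day 15), 9186 (iPSCs) and 6237 (ESCs). The sum of the 9 myeloid ligands was 580, 15716, 803, 6181, 605, 696 and 738. At Day 8, 21 of 22 markers had reads (Aif1 had none), and at Day 13 all 22 did. Of the 22, 15 had no read at Day 2, among them Ptprc, Spi1 and Adgre1, and 5 had none at Day 10 (Spi1, Aif1, Ctss, Mpeg1 and Plek). Fcgr1 was at 0 at Day 15 and in iPSCs, and Adgre1, Itgam, Aif1, Plek, Fcgr1 and Cd14 were at 0 in ESCs. The part of the macrophage markers in the myeloid ligand levels was not tested. From Day 2 to Day 8, 21 of 21 markers compared were higher, from Day 8 to Day 10 20 of 21 lower, from Day 10 to Day 13 19 of 21 higher and from Day 13 to Day 15 17 of 21 lower. Over the same steps, of the myeloid ligands compared, 5 of 8 were higher and 2 lower (16.3% and 21.9% of all genes), then 5 of 7 lower and 1 higher (9.08% and 20%), then 6 of 7 higher and 0 lower (7.08% and 2.85%), then 5 of 7 lower and 0 higher (6.03% and 6.36%).

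The ligands of the Day 8 and Day 13 libraries differed, a comparison added after the values were seen. Of 21 macrophage markers with reads in both, 17 were lower at Day 13 and 4 higher, and their log2 differences had a median of -1.05 and ran from -3.53 (Ptprc, CD45) to 0.85 (Adgre1, F4/80). Ccl3 was 25.3-fold lower at Day 13 than at Day 8 (21.8 to 29.6), Ccl6 18.7-fold (13.6 to 26.4), Ccl4 14.3-fold (12.3 to 16.8) and Ccl12 8.65-fold (8.05 to 9.31). Cxcl2 was 67.1-fold lower (52.8 to 86.8). These 5 ligands, named because they were lower, differed by -3.11 to -6.05 on the log2 scale. Of the markers, 5 were also at least 4-fold lower, and the Ccl12 difference of -3.11 lies within the marker range. In the other direction Ccl8 was at least 825-fold higher at Day 13, Ccl9 at least 140-fold, Cxcl16 2.91-fold (2.53 to 3.34) and Pf4 1.95-fold (1.81 to 2.09). Over the family, 5 of 24 genes compared were higher at Day 13 and 12 lower, against 23.6% higher and 8.77% lower among all genes. With reads required in both libraries, 1 was higher and 12 lower. The 2 libraries thus differed in which myeloid ligands were highest. Their macrophage marker sums of 72512 and 50391 rest heavily on Lyz2, which was higher at Day 13 (24224, against 18221 at Day 8), unlike most markers. The part of macrophage content in these ligand differences was not tested.

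**Figure D4:**
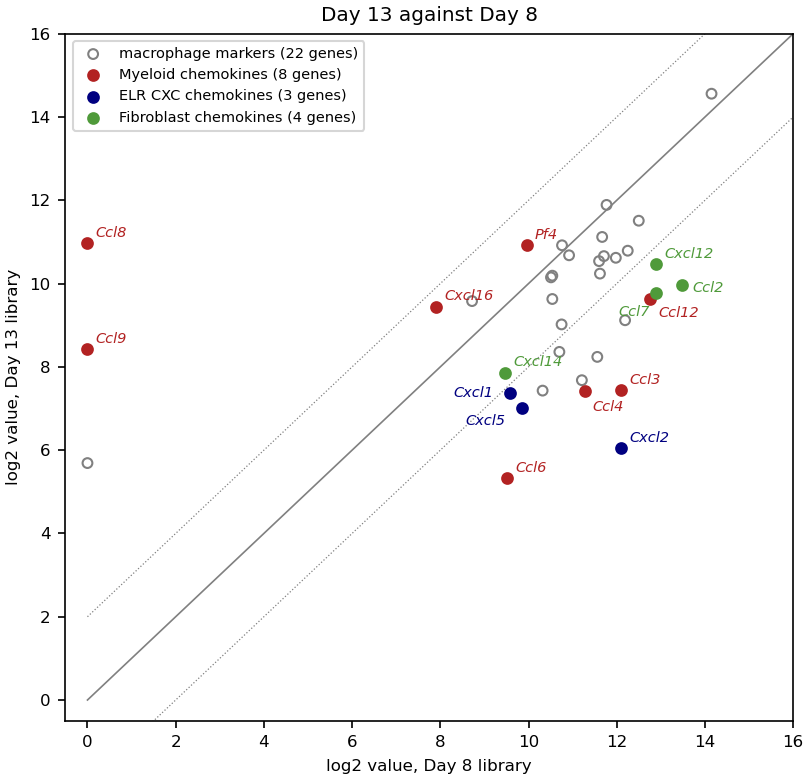
Deposited log2 values in the Day 13 library (vertical) against the Day 8 library (horizontal) for macrophage markers (open circles) and for the myeloid, ELR CXC and fibroblast chemokines that reached 6 in either library. The solid line marks equal values and the dotted lines a 4-fold difference. Ccl8 and Ccl9 have no read at Day 8, and Ccl3, Ccl4, Ccl6, Ccl12 and Cxcl2 lie below the lower dotted line.

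The interferon-induced ligands of Cxcr3 had no read at Days 2 and 8. Cxcl11 stood at 94.0 normalized counts (Day 10), 206 (Day 13), 23.8 (Day 15), 39.8 (iPSCs) and 111 (ESCs). Cxcl10 stood at 41.2, 153, 26.1, 103 and 1.08 in the same order. Both were highest at Day 13, and the stem cell libraries differed for Cxcl10, with 44 reads in iPSCs and 1 in ESCs. The exons of Cxcl11 overlap the annotated gene Gm2673 over 1582 of 3794 bases and those of Cxcl10 overlap Art3 over 133 of 2252. GENCODE lists Cxcl11 itself as a polymorphic pseudogene. Because Nextera XT libraries keep no strand, the origin of reads in such overlaps is uncertain.

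Cx3cl1 (fractalkine), a membrane-bound ligand of Cx3cr1, stood at 6469 (Day 2), 313 (Day 8), 90.1 (Day 10), 399 (Day 13), 810 (Day 15), 223 (iPSCs) and 138 (ESCs). Day 2 stood apart from all later libraries. It was 20.6-fold higher at Day 2 than at Day 8 (18.6 to 22.9). Ccl25, a ligand of Ccr9 best known from thymus and gut, stood at 283, 382, 149, 235, 517, 665 and 331. It had reads in every library, it was called in none of the 9 comparisons, and it led the ligands of the iPSC library by reads. Its exons overlap those of Elavl1 over 204 of 7445 bases.

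Of the receptors, Ackr3 (CXCR7), an atypical receptor that binds Cxcl12 and Cxcl11, had the highest single value, at 941 normalized counts (Day 2), 3.26 (Day 8), 183 (Day 10), 451 (Day 13), 765 (Day 15), 806 (iPSCs) and 137 (ESCs). Per exonic kilobase it led all members in iPSCs, at 241 normalized counts against 176 for Cxcl14. That order rests on the union of annotated exons: Ccl25, at 665 normalized counts in iPSCs, was divided by 7445 bases and stood at 89.4. For Ackr3, Day 8 was the low point, with 4 reads, 288-fold below Day 2 (112 to 1060) and 55.9-fold below Day 10 (21.5 to 207). ESCs were 5.87-fold below iPSCs (4.78 to 7.26). The ESC library stood apart with 20.9% mitochondrial reads, against 1.72% to 5.61% in the others, and the part of this in the differences between ESCs and iPSCs was not tested. Ackr4, which removes Ccl19 and Ccl25, stood at 192 (Day 8), 38.8 (Day 10), 39.1 (Day 13) and 2.16 (ESCs), with no read in the other 3. The exons of Ackr4 overlap those of Acad11 over 479 of 5380 bases. Cxcr4, the signalling receptor of Cxcl12, stood at 19.2, 0, 3.88, 58.6, 83.6, 7.03 and 13.0 from Day 2 to ESC. Its highest level was thus in the Day 15 library, 1.43-fold above Day 13 (1.05 to 1.96). Cxcl12 was also high at Day 15 (7609). It was higher at Day 2 (15470) and near the same at Day 8 (7631), where Cxcr4 stood at 19.2 and 0. Cxcr2, the receptor of the ELR ligands, stood at 106 at Day 15 and at 8.64 or less in every other library. The Day 15 level of Cxcr2 rested on 182 reads, 36.1-fold above Day 13 (12.1 to 176).

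Among the receptors of myeloid cells, Ccr1 and Cx3cr1 were highest at Day 8. Ccr1, a receptor of Ccl3, Ccl6 and Ccl9, stood at 85.0 (Day 2), 424 (Day 8) and 7.81 (Day 13), with no read in the other 4. Cx3cr1, the fractalkine receptor of monocytes and microglia, stood at 1.83 (Day 2), 138 (Day 8), 68.3 (Day 10) and 39.1 (Day 13), with no read in the other 3. Ccr1 was thus 54.2-fold lower at Day 13 than at Day 8 (27.3 to 126). Ccr9, the Ccl25 receptor, had 83 reads at Day 2 and none elsewhere, and 2201 of its 10260 exonic bases overlap other genes, Slc6a20a among them.

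Of 41 ligand and receptor pairs listed from textbook knowledge, both genes were in the table for 21. Both members reached 6 on the log2 scale for 4 pairs at Day 2, 5 (Day 8), 3 (Day 10), 4 (Day 13), 4 (Day 15), 1 (iPSCs) and 1 (ESCs). Cxcl12 with Ackr3 was among them in 5 libraries, all but Day 8 and ESC. Cxcl12 with Cxcr4, and Cxcl1 and Cxcl5 with Cxcr2, met the level at Day 15 alone. Ccl3 and Ccl6 with Ccr1 met it at Day 8. For 5 (iPSC) to 12 (Day 13) of these 21 pairs the ligand reached the level and the receptor did not. Ccr2, Ccr8 and Cxcr3, named above as receptors of Ccl2, Ccl8 and the interferon-induced ligands, were not in the table. Pairs with them could therefore not be counted. A bulk library does not show whether the RNAs of a pair came from the same cells.

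Chromosome 5 holds 8 members, chromosome 11 10 and chromosome 9 9 (GENCODE M21, GRCm38), some side by side and others, such as Cxcl16 and Ccr7 on chromosome 11, far from the rest. On chromosome 5, Cxcl5 (90759360 to 90761624, + strand), Ppbp (90768518 to 90770063, +) and Pf4 (90772435 to 90773383, +) follow each other. Cxcl5 and Ppbp were highest at Day 2 and Pf4 at Day 13. On chromosome 11, Ccl2 (82035571 to 82037453, +), Ccl7 (82045712 to 82047525, +), Ccl12 (82101845 to 82103400, +) and Ccl8 (82115185 to 82116799, +) follow in this order. Ccl2, Ccl7 and Ccl12 were highest at Day 8, whereas their neighbour Ccl8 had no read there. The next group on that chromosome, Ccl9, Ccl6, Ccl3 and Ccl4, had its highest library at Day 8 for all but Ccl9, which was highest in ESCs. Direct neighbours thus differed in the library of their highest value on both chromosomes.

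**Figure D5:**
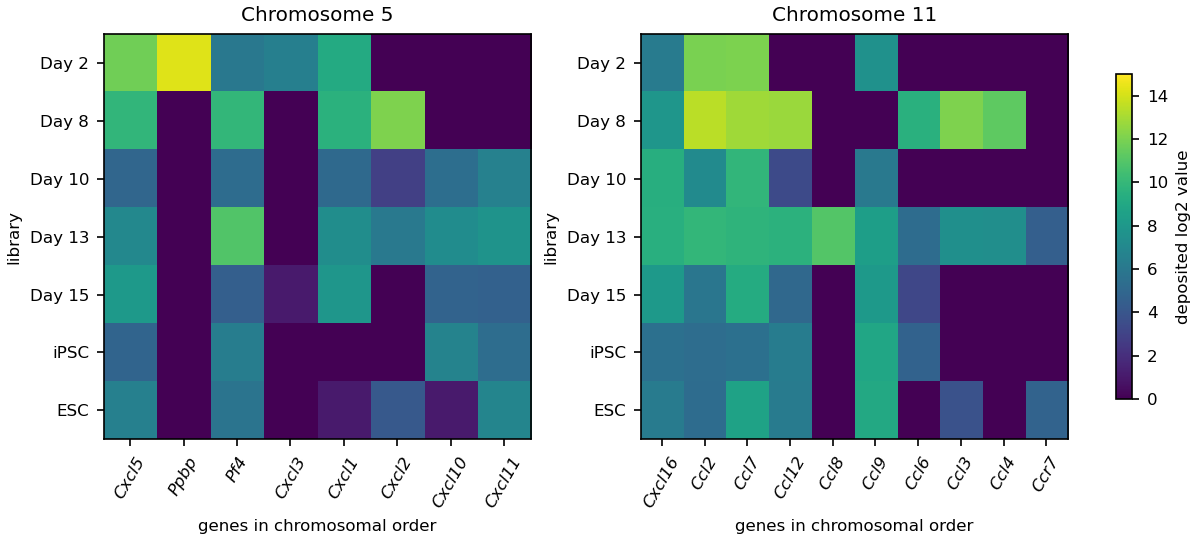
Deposited log2 values (colour) of the chemokine and receptor genes of chromosomes 5 and 11, in chromosomal order from left to right, with the 7 libraries in rows. Ppbp is bright at Day 2 alone between Cxcl5 and Pf4, and Ccl8 at Day 13 alone between Ccl12 and Ccl9.

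The signalling route below the receptors was counted in the same way. Of its 38 genes in the table, led by the GTPase Cdc42 and Rac1 and the G protein subunits Gnb1, Gnai3 and Gng5, 8 of 32 compared were higher and 4 lower at Day 8 than at Day 2 (16.3% and 21.9% of all genes). At Day 10 against Day 8, 5 of 33 were higher and 7 lower (20% and 9.08%). At Day 13 against Day 10, 6 of 36 were higher and 0 lower (7.08% and 2.85%), and at Day 15 against Day 13 1 of 36 was higher and 7 lower (6.36% and 6.03%). In iPSCs against Day 2, 6 of 31 were higher and 9 lower (18% and 18.6%), which is near the share of all genes for the higher ones. Cdc42 stood at 24887 normalized counts at Day 2 and between 9055 and 16175 in the other 6 libraries. Rac1 stood at 24583 at Day 2 and between 7354 and 13219 elsewhere. Genes known to induce chemokines or to be induced with them numbered 21 compared between the ends of the course, 12 of them lower in iPSCs and 1 higher, against the same shares of all genes. The prostaglandin synthase Ptgs2 stood at 16924 at Day 2 and between 60.4 and 300 elsewhere, and the macrophage growth factor Csf1 at 15460 at Day 2 and between 0 and 253 elsewhere. Nfkbia, the NF-κB inhibitor, stood at 3179 (Day 2), 8906 (Day 8), 3993 (Day 10), 3316 (Day 13), 2227 (Day 15), 2711 (iPSCs) and 1414 (ESCs). Its highest value was at Day 8, whereas Rela, an NF-κB subunit, was highest at Day 2 (4351, against 2739 at Day 8), as was the TNF receptor Tnfrsf1a (6923 against 2215). From Day 10 to Day 13, 0 of 17 inducers compared were higher and 2 lower, with 7.08% and 2.85% among all genes.

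Other cell types were represented as follows. The 6 neutrophil markers in the table summed to 0 normalized counts at Day 8, 157 at Day 15 and 229 at most (ESC). Csf3r alone made 219 of the ESC sum. At Day 15, where Cxcr2 was highest, 5 of the 6 had reads. Mmp8 (73.7) and Retnlg (35.4) had reads in that library alone, and Camp (17.6) at Day 13 alone. A neutrophil source of the Cxcr2 reads was not tested. The 6 lymphocyte markers summed to 53.0 (Day 2) to 1190 (iPSC). The 7 endothelial markers had no read at Day 2 and summed to 1200 to 4250 elsewhere. Pecam1, which pluripotent cells also express, was the highest of them in every library with reads except Day 8, where Tek was. The 8 epithelial markers summed to 118 at Day 2 and to 14172 (iPSC) to 140643 (Day 8) elsewhere. The 8 pluripotency markers summed to 2.74 at Day 2, 11864 at Day 8 and 347886 in iPSCs. Of 11 genes with related names or functions outside the symbol rule, such as the cytokine Mif and the integrin Itgb2, 9 were compared between the ends of the course. Of these 9, 2 were higher in iPSCs and 2 lower, where 18% and 18.6% of all genes were.

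The 9 members that stayed under 6 on the log2 scale were the ligands Ccl20, Ccl28 and Cxcl17 and the receptors Ccr3, Ccr4, Ccr7, Cxcr6, Ackr1 and Ccrl2. Their highest read counts ranged from 12 (Ackr1, Day 13) to 56 (Ccl20, Day 2). Cxcr6, the Cxcl16 receptor of T cells, and Cxcl17, a mucosal ligand, had reads in the Day 13 library alone, 13 and 16.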

How the data were processed

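The authors deposited 1 table of values on the log2 scale, with 1 column per library. Per the submitters' processing notes, FastQC, STAR 2.5.3a and featureCounts were used with mm10 (GRCm38.p5). How the size factors were estimated is not stated in these sources. Per the labels' protocols, 500 pg of RNA went into cDNA synthesis and Nextera XT libraries. Undoing log2(value + 1) gave whole reads for 100% of values within 0.01 reads, so reads were recovered. Members were taken by symbol and positions, exonic lengths, overlaps and coding sequences from GENCODE M21, which matched 23485 of 24393 symbols and all 39 members. Values of 2 libraries were subtracted and called at 2 (4-fold) where the higher reached 6. The calls and intervals were tested on simulated data. Members with 6 or more in at least 1 library are named with their values, except 1 that is counted but not reported here, and of each other list at most the 5 genes with the highest values, besides markers at 0 and markers set beside a result. The members, lists and rules were chosen with earlier results of these data known. The lists were macrophage, neutrophil, lymphocyte, platelet and megakaryocyte, fibroblast, endothelial, epithelial and pluripotency markers, chemokine signalling, chemokine inducers and related names. Python 3.11.15, pandas 2.3.3, SciPy 1.17.1 and Biopython 1.88 were used.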

Additional observations from a re-analysis of the deposited data

How the results depend on the processing

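Counts of chemokine genes called moved by over 1.5 times as follows. With no filter on low values, higher counts became 7 (Day 10 against Day 8), 20 (Day 13 against Day 10), 5 (Day 15 against Day 13), 2 (iPSC against Day 15), 4 (ESC against iPSC), 7 (iPSC against Day 2) and 12 (Day 13 against Day 8), and lower counts 1 (Day 13 against Day 10), 17 (Day 15 against Day 13) and 5 (ESC against iPSC). With the filter at 5, higher counts became 5 (Day 10 against Day 8), 2 (iPSC against Day 15) and 5 (iPSC against Day 2). At 2-fold, higher counts became 5 (Day 15 against Day 13), 4 (iPSC against Day 15), 3 (ESC against iPSC) and 5 (iPSC against Day 2). With reads required in both libraries, an alternative chosen after seeing the data, higher counts became 3 (Day 8 against Day 2), 1 (Day 10 against Day 8), 0 (iPSC against Day 2) and 1 (Day 13 against Day 8), and lower counts 2 (Day 8 against Day 2), 5 (Day 15 against Day 13) and 6 (iPSC against Day 2). With Day 10 in place of Day 8, 3 were higher and 13 lower than at Day 2. The count of 1 gene higher in iPSCs than at Day 15 became 0 with a pseudocount of 8, with library-total scaling or with the counting interval required beyond 4-fold. Library-total scaling moved all differences by -0.17 (iPSC against Day 15) to 0.40 (Day 10 against Day 2) on the log2 scale. It reversed the direction of 0 of 99 called member differences, but calls near 4-fold could be gained or lost. The cause of these moves was not tested beyond the construction of each setting. No replicate could be left out and no paired analysis was possible because each group has 1 library. Low levels rest on few reads, and the iPSC library is the shallowest.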
